A study of Mus musculus with 12 samples.

Results

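The MyD88, IRAK and NF-kB signalling genes are 41 genes picked by name from the count table. They cover the adaptors and kinases that carry signals from Toll-like and interleukin-1 family receptors, the TRAF adaptors, the kinases that act on the inhibitor of NF-kB, the NF-kB subunits and the proteins that hold them back. All 41 were found among the 24062 genes of the table, and all 41 were among the 13509 genes with enough reads to be tested.

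Messenger RNA was sequenced from CD4+ T cells of C57BL/6 mice, which a sorter split by GFP into Treg (regulatory T cells, CD4+GFP+) and conventional T cells (Tconv, CD4+GFP-). Tumour-bearing (TB) mice had received 500000 TC-1 cells into the tail vein and were killed 3 weeks later. TC-1 is a mouse lung epithelial line transformed with oncogenes. Cells came from the tumour and the spleen of TB mice and from the spleen of normal mice, which gives 6 groups of 2 libraries: tumour Treg, TB spleen Treg, normal spleen Treg, tumour Tconv, TB spleen Tconv and normal spleen Tconv. T cells from the same organ without tumour are not among the groups, so tumour and organ cannot be told apart in a comparison with spleen. The labels name no allele that carries GFP. Descriptions of the tumour libraries carry the letters LG, where their titles carry TM. The ages of the mice and whether a library held 1 animal or a pool are not given in the sources used here. P-values measure only the spread between these libraries, which may be technical.

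Total counts ran from 18624132 to 24111546 per library. Foxp3, the transcription factor that marks Treg, ranged over 989 to 1246 CPM (read counts scaled by TMM to a library total of 1000000) in Treg, and all 6 Tconv libraries had 11.5 to 19.6 CPM. Macrophage, fibroblast and epithelial transcripts were higher in the tumour libraries. The summed level of 16 macrophage and monocyte markers was 317 to 438 CPM in tumour Treg, 210.2 to 524 CPM in tumour Tconv and 11.3 to 25.7 CPM in the 8 spleen libraries. Of these markers, 15 were tested, 15 rose in tumour Treg over TB spleen Treg and 14 in tumour Tconv over TB spleen Tconv. The sum of 9 fibroblast markers was 561 to 569.9 CPM in tumour Treg, 303 to 746 CPM in tumour Tconv and 0.286 to 5.66 CPM in spleen. The defining epithelial genes Sftpc and Nkx2-1 had 0 counts in all 8 spleen libraries, where the sum of 13 epithelial markers was 3.19 to 29.6 CPM, against 94.5 to 172 CPM in the tumour libraries. Dendritic cell markers summed to 23.8 to 54.8 CPM in the tumour libraries and 15.997 to 32.2 CPM in spleen, and neutrophil markers to 4.57 to 18.9 CPM and 0.0954 to 9.52 CPM. The 10 genes of CD4 T cell identity summed to 6239 to 7262 CPM in the tumour and 6724 to 8511 CPM in spleen. A list of 26 immediate early and dissociation stress genes summed to 13965 to 14333 CPM in tumour Treg, 17039 to 19505 CPM in tumour Tconv and 4318 to 6304 CPM in the spleen libraries. Of the stress list, 21 rose and 2 fell in tumour Treg, and 23 rose and 1 fell in tumour Tconv. The part of these transcripts in the results below was not tested.

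NF-kB is a family of transcription factors that sit in the cytoplasm bound to inhibitors (IkB proteins). Toll-like and interleukin-1 family receptors, ST2 (the interleukin-33 receptor) included, recruit MyD88 and the IRAK kinases, which act through TRAF6 and the TAK1 kinase on the IKK complex. IKK marks the inhibitors for destruction, and the freed subunits enter the nucleus, where genes for inhibitors and for the deubiquitinase A20 are among their best-known targets. The antigen receptor reaches IKK by CARMA1, BCL10 and MALT1, and TNF family receptors by the TRAF proteins and NIK. In Treg, c-Rel supports the expression of Foxp3.

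Between tumour and TB spleen, the 6 genes of the IkB family (grouped here as inhibitors) and the A20 gene Tnfaip3 rose in both cell types. Not all 6 act only as brakes. IkB-zeta (Nfkbiz) switches on genes, Bcl3 is a coactivator and IkB-NS (Nfkbid) is linked to Foxp3 induction. Of the upstream kinases, Irak4 fell (-0.42 in Treg and -0.68 in Tconv on the log2 scale) and Chuk rose (0.48 and 0.30) in both, Map3k7 (-0.31) and Ikbke (-0.66) fell in Treg. Irak2 rose in Treg (0.68) and Map3k14 in Tconv (0.74), and Irak1, Irak3 and Ikbkb did not pass the test in either. In tumour Treg, 21 of the 41 members were called higher and 6 lower than in TB spleen Treg at an adjusted p under 0.05, against 32.8% and 28.7% of all genes tested (61.4% in either direction). In tumour Tconv, 22 were higher and 6 lower than in TB spleen Tconv, against 26.4% and 22.8% (49.1% in either direction). The share of members called in either direction was thus near the background in Treg. Median log2 fold changes of the members were 0.20 in Treg and 0.30 in Tconv, beside 0.02 and 0.00 over all genes tested. In tumour against TB spleen Treg, 7 members were higher and 1 lower by at least 2-fold (background 17.2% and 6.58%, 23.7% in either direction), and 33 had libraries that did not overlap between the groups (background 81.1%). In Tconv, 8 members were higher and 0 lower by at least 2-fold (background 16.3% and 3.15%, 19.5% in either direction), and 33 had libraries that did not overlap between the groups (background 73.4%). In bulk RNA, fewer cells of a type and less RNA per cell cannot be told apart.

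Scaling by library size alone shifted the median of all genes by -0.16 (Treg) and -0.11 (Tconv) on the log2 scale, against TMM, and the members then split 18 higher to 11 lower in Treg (62.1% of calls higher, against 77.8%). Over all genes, 39.9% of the Treg calls were then higher, against 53.3% with TMM. Under that scaling the uncalled Treg values of Rela, Tab2, Tab3, Traf2, Traf3, Traf6, Irak1 and Malt1 changed sign. Of the 27 Treg calls, 4 were lost when 1 library or another was left out. Myd88 lost its call without tumour Treg 1 or either TB spleen Treg library (adjusted p = 0.0518 to 0.0851). Tnip1 lost its call without tumour Treg 1 or TB spleen Treg 1 (adjusted p = 0.0805 to 0.0896). Tnip2 lost its call without tumour Treg 2 or TB spleen Treg 2 (adjusted p = 0.0572 to 0.0882). Cyld lost its call without any 1 library other than tumour Treg 2, tumour Tconv 1 and both TB spleen Tconv libraries (adjusted p = 0.0509 to 0.152). Of the 28 Tconv calls, 5 were lost in the same way. Chuk lost its call without TB spleen Tconv 2 (adjusted p = 0.0735). Traf3 lost its call without tumour Tconv 1 or TB spleen Tconv 1 (adjusted p = 0.157 to 0.218). Traf6 lost its call without any 1 library other than both tumour Treg libraries, tumour Tconv 2 and TB spleen Tconv 1 (adjusted p = 0.0547 to 0.284). Tirap lost its call without tumour Tconv 1 or TB spleen Tconv 2 (adjusted p = 0.0656 to 0.114). Tnip2 lost its call without TB spleen Tconv 2 (adjusted p = 0.167).

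**Figure D1:**
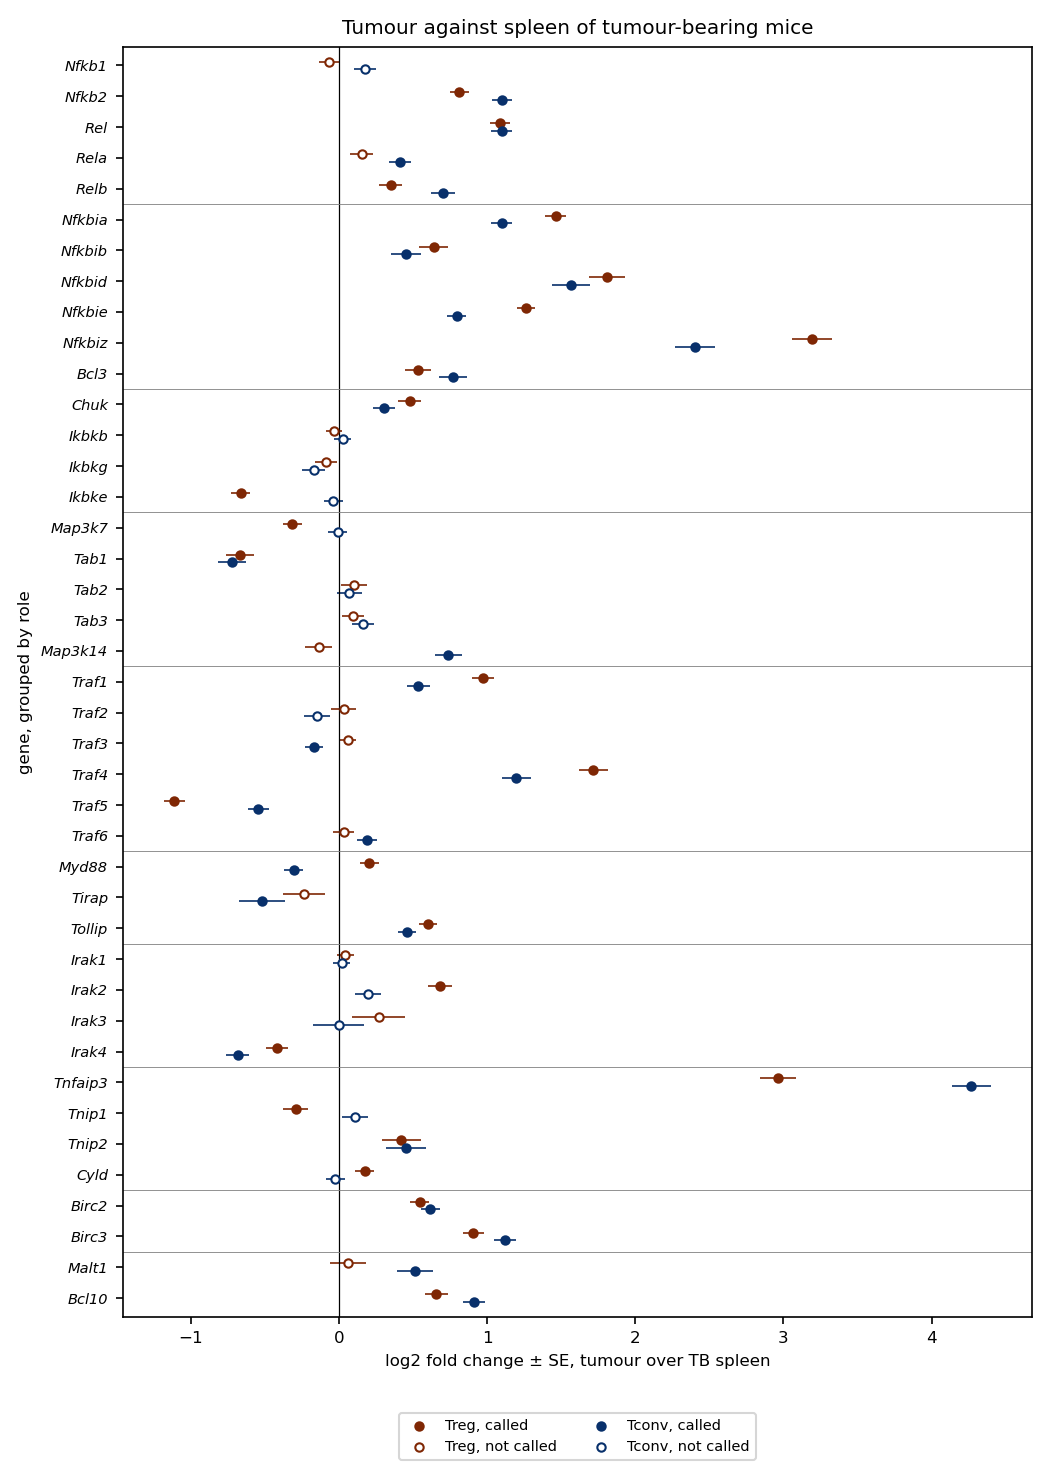
Log2 fold change ± SE (x axis) of each of the 41 genes (y axis, grouped by role) between tumour and TB spleen, in Treg (brown) and Tconv (blue), with filled points for called genes. All 6 genes of the IkB family, grouped as inhibitors, lie to the right of 0 in both cell types. Nfkbiz lies farthest right in Treg, at 3.19, and Tnfaip3 in Tconv, at 4.27.

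Tnfaip3 encodes A20, a ubiquitin-editing enzyme that shuts off signals from TRAF6 and RIPK1 to IKK. It lies at chr10:19000910-19015657 (mm10). Its level was 4251 and 4164 CPM in tumour Treg, 568 and 512 in TB spleen Treg, 168 and 188 in normal spleen Treg, 4525 and 3359 in tumour Tconv, 209.9 and 199 in TB spleen Tconv and 100.4 and 107 in normal spleen Tconv. Tumour libraries were the highest in both cell types and did not overlap those of spleen, and TB spleen lay above normal spleen in both. The log2 fold change of tumour over TB spleen was 2.96 ± 0.12 (adjusted p = 3.2e-09) in Treg and 4.27 ± 0.13 (adjusted p = 3.3e-10) in Tconv. The rise was larger in Tconv, by a difference of -1.31 ± 0.16 (adjusted p = 1.7e-04) on the log2 scale, Treg minus Tconv. Within the spleen, TB mice exceeded normal mice by 1.60 ± 0.12 (adjusted p = 6.7e-06) in Treg and 0.98 ± 0.12 (adjusted p = 2.6e-04) in Tconv. Treg exceeded Tconv in TB spleen by 1.40 ± 0.12 (adjusted p = 1.2e-06) and in normal spleen by 0.78 ± 0.12 (adjusted p = 1.8e-04), whereas in the tumour the difference was 0.09 ± 0.11 (adjusted p = 0.531).

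**Figure D2:**
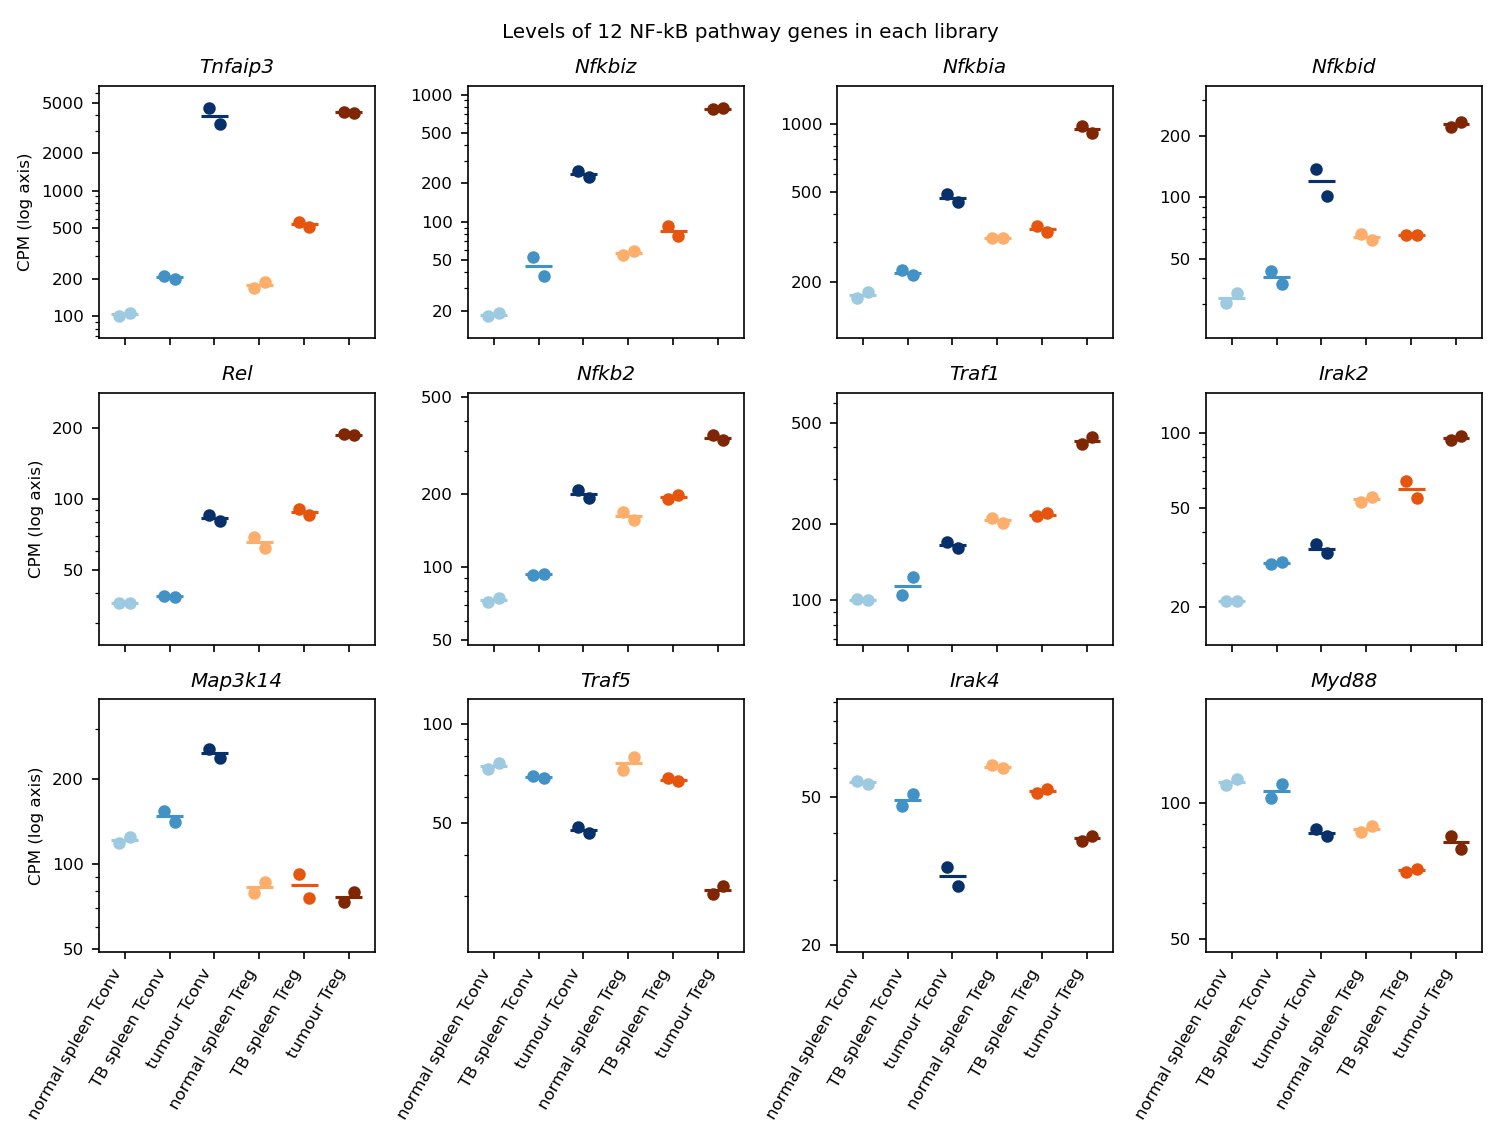
Levels (CPM, log axis) of 12 genes in each of the 12 libraries, by group, with a bar at the mean of the 2 libraries. Tnfaip3 is at 3359 CPM or above in all 4 tumour libraries and at 568 CPM or below in the 8 spleen libraries.

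Cyld, a second deubiquitinase that restrains IKK, was 428 and 414 CPM in tumour Treg, 379 and 368 in TB spleen Treg, 386 and 392 in normal spleen Treg, 371 and 353 in tumour Tconv, 383 and 353 in TB spleen Tconv and 402 and 386 in normal spleen Tconv. Its tumour over TB spleen change was 0.17 ± 0.06 (adjusted p = 0.0323) in Treg and -0.03 ± 0.06 (adjusted p = 0.767) in Tconv, and the test over all 6 groups at once gave an adjusted p of 0.0521. Library-size scaling ended the Treg call of Cyld (adjusted p = 0.863). Tnip1, which encodes the A20-binding protein ABIN1, was 238 and 271 CPM in tumour Treg, 323 and 299.7 in TB spleen Treg, 344 and 348 in normal spleen Treg, 217 and 184 in tumour Tconv, 184 and 188 in TB spleen Tconv and 184 and 189.7 in normal spleen Tconv. Tumour Treg lay below TB spleen Treg (-0.29 ± 0.08, adjusted p = 0.01), while the tumour Tconv change was 0.11 ± 0.09 (adjusted p = 0.321). At every site Treg exceeded Tconv for Tnip1, by 0.34 ± 0.09 in the tumour, 0.74 ± 0.09 in TB spleen and 0.89 ± 0.09 in normal spleen. Tnip2, encoding the related ABIN2, was 19.7 and 20.5 CPM in tumour Treg, 15.5 and 14.5 in TB spleen Treg, 12.3 and 11.4 in normal spleen Treg, 17.0 and 16.1 in tumour Tconv, 13.9 and 10.4 in TB spleen Tconv and 9.22 and 9.77 in normal spleen Tconv. It rose in tumour Treg by 0.42 ± 0.13 (adjusted p = 0.0141) and in tumour Tconv by 0.45 ± 0.14 (adjusted p = 0.0155). Per kilobase of exon, Tnfaip3 made up 83.8% ± 0.92 (SD, n = 2) of the 4 genes' total in tumour Treg, 37.7% ± 0.68 in TB spleen Treg and 15.6% ± 0.91 in normal spleen Treg. The Tconv shares were 85.5% ± 1.6, 24.7% ± 0.27 and 14.1% ± 0.49.

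All 6 genes of the IkB family were called higher in the tumour than in TB spleen in both cell types. Among all genes tested, 32.8% were called higher in Treg and 26.4% in Tconv, and the share higher in both was not computed. Nfkbiz, encoding the nuclear inhibitor family protein IkB-zeta, which is induced by MyD88 signals and switches on secondary response genes, lies at chr16:55811375-55838899. It was 772 and 779 CPM in tumour Treg, 92.4 and 77.4 in TB spleen Treg, 54.3 and 59.0 in normal spleen Treg, 251 and 224 in tumour Tconv, 52.8 and 37.4 in TB spleen Tconv and 18.1 and 18.98 in normal spleen Tconv. Tumour libraries did not overlap those of spleen, and within each site Treg lay above Tconv. The tumour over TB spleen change was 3.19 ± 0.14 (adjusted p = 3.9e-09) in Treg and 2.40 ± 0.14 (adjusted p = 5.6e-08) in Tconv, with a larger rise in Treg (difference 0.79 ± 0.18, adjusted p = 0.008).

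Nfkbia encodes IkB-alpha, the classical inhibitor that NF-kB itself induces, and lies at chr12:55489410-55492647. Its level was 980.1 and 915 CPM in tumour Treg, 355 and 333 in TB spleen Treg, 315 and 314 in normal spleen Treg, 493 and 454 in tumour Tconv, 226 and 216 in TB spleen Tconv and 169.9 and 181 in normal spleen Tconv. Tumour Treg stood above all other groups. Tumour exceeded TB spleen by 1.46 ± 0.07 (adjusted p = 1.1e-08) in Treg and 1.10 ± 0.07 (adjusted p = 1.6e-07) in Tconv, and the rise was larger in Treg (difference 0.36 ± 0.10, adjusted p = 0.0174). Nfkbid, encoding IkB-NS, a nuclear family member linked to c-Rel and Foxp3 induction, was 222 and 236 CPM in tumour Treg, 65.3 and 65.4 in TB spleen Treg, 66.2 and 61.7 in normal spleen Treg, 139 and 101 in tumour Tconv, 43.4 and 37.7 in TB spleen Tconv and 30.4 and 33.7 in normal spleen Tconv. Its rise was 1.81 ± 0.12 (adjusted p = 1.8e-07) in Treg and 1.56 ± 0.13 (adjusted p = 1.2e-06) in Tconv, and the difference between the rises did not pass the test (0.24 ± 0.17, adjusted p = 0.346). The gene of IkB-epsilon, Nfkbie, was 188 and 204 CPM in tumour Treg, 81.7 and 82.2 in TB spleen Treg, 81.7 and 85.2 in normal spleen Treg, 88.9 and 90.3 in tumour Tconv, 52.8 and 50.5 in TB spleen Tconv and 46.5 and 46.3 in normal spleen Tconv. Its rise was 1.26 ± 0.06 (adjusted p = 1.3e-08) in Treg and 0.79 ± 0.06 (adjusted p = 1.2e-06) in Tconv, again larger in Treg (difference 0.47 ± 0.09, adjusted p = 0.0028). Nfkbib (IkB-beta, 39.5 to 74.4 CPM) rose by 0.64 ± 0.10 and 0.45 ± 0.10 in Treg and Tconv. Its exons share 16.4% of their bases with genes on the other strand, so its value is uncertain to that extent. Bcl3, a coactivator of p50 and p52 homodimers (53.0 to 152.9 CPM), rose by 0.53 ± 0.09 and 0.77 ± 0.09.

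Nfkbiz held a larger share of the inhibitor family in the tumour than in spleen, in both cell types. Per kilobase, Nfkbia held 59.2% ± 2.3 (SD, n = 2) of the total in tumour Treg and 61.8% ± 0.093 in TB spleen Treg. The share of Nfkbiz was 15.5% ± 0.25 in tumour Treg, 4.89% ± 0.4 in TB spleen Treg and 3.51% ± 0.23 in normal spleen Treg. In Tconv it was 9.55% ± 0.079, 3.94% ± 0.86 and 2% ± 0.029. Bcl3 held a smaller share in tumour Treg, 5.8% ± 0.66, than in TB spleen Treg, 11.5% ± 0.054.

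**Figure D3:**
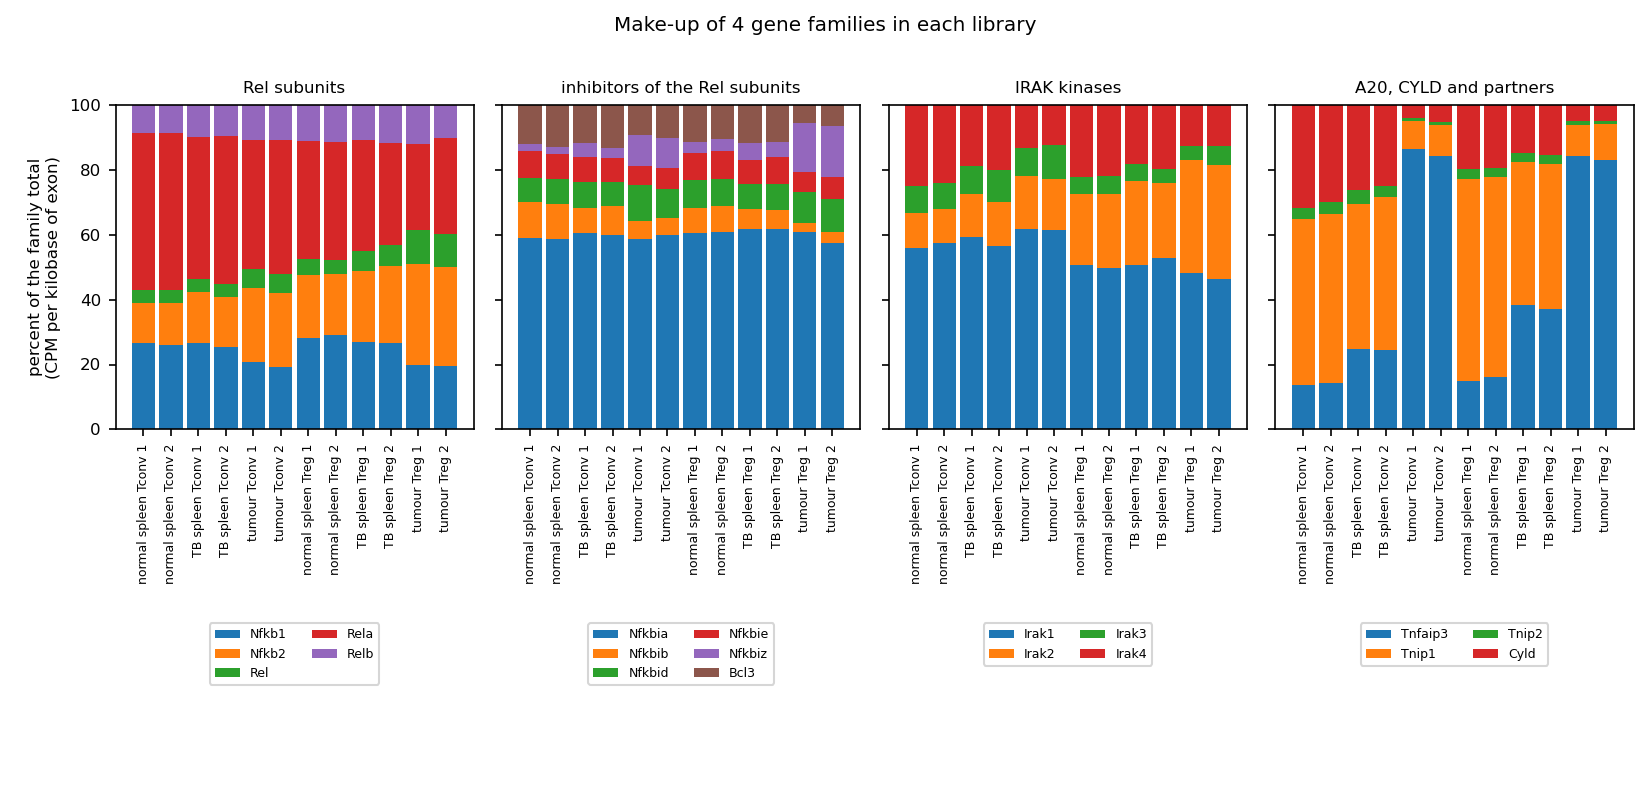
Share (percent, y axis) of each gene in the CPM per kilobase total of its family, for each of the 12 libraries (x axis), in 4 families. The Tnfaip3 bar grows from 14.1% in normal spleen Tconv to 85.5% in tumour Tconv, and the Nfkbiz bar is tallest in tumour Treg.

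Because genes of inhibitors are known targets of the factors they inhibit, the 250 bases before the start sites of members were searched for the NF-kB consensus motif, called kB consensus here, on both strands with overlapping matches joined. The windows are those of RefSeq on GRCm38.p6, in which 35 of the 41 members were found. At least 1 match lay in 13 of 48 member windows (27.1%), against 3.9% of all 32851 windows. By gene, 11 of 35 members (31.4%) had a match, against 4.46% of genes. Members were picked by name and include known NF-kB targets, so this excess may come from the choice, which was not tested. Of those 11, 8 were higher and 2 lower in tumour Treg than in TB spleen Treg, and 7 higher and 1 lower in tumour Tconv. Of the 24 without a match, 11 were higher and 3 lower in Treg, and 12 higher and 4 lower in Tconv. Of all genes tested, 32.8% were higher and 28.7% lower in Treg, and 26.4% and 22.8% in Tconv. A match describes these letters only. Some windows with a match overlap annotated exons of the same gene (GENCODE M21). Exons cover 110 bases of the Tnfaip3 window, all 250 of the Bcl10 window and of an Nfkb2 window, and 234 of another Nfkb2 window. No window was found for Nfkbiz, Relb, Nfkb1, Malt1, Ikbkb and Tab1, and those of Nfkbib and Bcl3, which rose in both cell types, had no match. Shown here are only windows with a match. They are those of 3 IkB family genes that rose, of c-Rel, which rose in both cell types, and of Tnip1, which fell in Treg. Each is 250 bases, 5′ to 3′ on the gene's strand, and capitals mark the matches.
Nfkbia (chr12:55492648-55492897, - strand): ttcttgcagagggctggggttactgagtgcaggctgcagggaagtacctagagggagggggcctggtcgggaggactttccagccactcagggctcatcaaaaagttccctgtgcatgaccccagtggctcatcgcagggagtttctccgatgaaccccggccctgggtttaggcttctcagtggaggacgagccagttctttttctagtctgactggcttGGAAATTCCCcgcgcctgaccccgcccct
Nfkbid (chr7:30422156-30422405, + strand): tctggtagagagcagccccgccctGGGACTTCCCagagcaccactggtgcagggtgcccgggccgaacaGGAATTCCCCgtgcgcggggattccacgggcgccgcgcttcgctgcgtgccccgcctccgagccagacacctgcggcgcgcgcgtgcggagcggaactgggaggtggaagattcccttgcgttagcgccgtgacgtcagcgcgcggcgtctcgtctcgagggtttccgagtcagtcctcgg
Nfkbie (chr17:45555450-45555699, + strand): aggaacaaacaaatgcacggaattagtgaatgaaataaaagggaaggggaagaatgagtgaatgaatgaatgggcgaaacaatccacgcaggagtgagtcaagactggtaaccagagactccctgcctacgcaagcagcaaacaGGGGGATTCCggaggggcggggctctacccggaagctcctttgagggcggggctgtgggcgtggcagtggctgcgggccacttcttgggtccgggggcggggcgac
Rel (chr11:23770970-23771219, - strand): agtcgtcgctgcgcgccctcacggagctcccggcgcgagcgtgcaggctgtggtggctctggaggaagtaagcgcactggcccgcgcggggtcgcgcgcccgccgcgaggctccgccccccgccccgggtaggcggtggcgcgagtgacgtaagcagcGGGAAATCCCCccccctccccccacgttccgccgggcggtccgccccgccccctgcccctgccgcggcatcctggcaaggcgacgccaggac
Tnip1 (chr11:54962941-54963190, - strand): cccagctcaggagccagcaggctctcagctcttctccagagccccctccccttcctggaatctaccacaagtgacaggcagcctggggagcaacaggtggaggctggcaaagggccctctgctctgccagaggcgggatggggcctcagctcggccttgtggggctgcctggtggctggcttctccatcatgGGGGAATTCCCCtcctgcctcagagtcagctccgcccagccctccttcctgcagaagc
The match in Nfkbia began 29 bases before the start site, that in Rel 92 bases and that in Tnip1 58 bases. The Nfkbid window, which is before the second of 3 start sites in the table, had matches 226 and 181 bases before it, and the other two windows of the gene had none. In Tnfaip3, the member with the largest rise in Tconv, the window before the upstream one of its start sites in the table had 2 matches, GGGACACCCC at 125 bases and GGAAATCCCC at 12 bases before it.

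Among the Rel subunits, those that rose in the tumour were c-Rel, p100 and RelB in both cell types and RelA in Tconv. Rel, at chr11:23736847-23770970, was 188 and 186 CPM in tumour Treg, 90.9 and 85.3 in TB spleen Treg, 69.4 and 62.1 in normal spleen Treg, 85.4 and 80.5 in tumour Tconv, 38.9 and 38.5 in TB spleen Tconv and 36.4 and 36.2 in normal spleen Tconv. Tumour Treg libraries were the highest and the 4 spleen Tconv libraries the lowest, and Treg lay above Tconv at every site. The change of tumour over TB spleen was 1.08 ± 0.07 (adjusted p = 9.4e-08) in Treg and 1.10 ± 0.07 (adjusted p = 2.0e-07) in Tconv. Treg exceeded Tconv by 1.17 ± 0.07 (adjusted p = 2.6e-08) in the tumour, 1.19 ± 0.07 (adjusted p = 6.7e-08) in TB spleen and 0.86 ± 0.07 (adjusted p = 1.2e-06) in normal spleen.

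Nfkb2 encodes p100, the precursor of p52 in the non-canonical route. It was 349 and 335 CPM in tumour Treg, 191 and 198 in TB spleen Treg, 168 and 157 in normal spleen Treg, 208 and 192 in tumour Tconv, 93.1 and 93.7 in TB spleen Tconv and 71.6 and 74.9 in normal spleen Tconv. Its rise was 0.81 ± 0.06 (adjusted p = 6.7e-07) in Treg and 1.10 ± 0.07 (adjusted p = 1.0e-07) in Tconv, smaller in Treg (difference -0.29 ± 0.09, adjusted p = 0.0372). Its exons share 18.1% of their bases with genes on the other strand. Relb, the partner of p52, was 112 and 95.1 CPM in tumour Treg, 79.2 and 83.2 in TB spleen Treg, 81.4 and 79.8 in normal spleen Treg, 82.9 and 76.5 in tumour Tconv, 49.2 and 48.6 in TB spleen Tconv and 41.7 and 41.9 in normal spleen Tconv. Tumour over TB spleen gave 0.35 ± 0.08 (adjusted p = 0.002) in Treg and 0.71 ± 0.08 (adjusted p = 2.1e-05) in Tconv. For Nfkb2 and Relb, Treg exceeded Tconv at every site, by 0.38 to 1.15 on the log2 scale.

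Rela, the transactivating subunit p65 of the canonical dimer, was 198 and 218 CPM in tumour Treg, 199.7 and 175 in TB spleen Treg, 209.6 and 203 in normal spleen Treg, 244 and 234 in tumour Tconv, 173 and 186 in TB spleen Tconv and 187 and 187 in normal spleen Tconv. The tumour Tconv libraries were the highest, with a change of 0.41 ± 0.08 (adjusted p = 7.7e-04) over TB spleen Tconv, while tumour Treg gave 0.15 ± 0.08 (adjusted p = 0.1). Nfkb1 encodes p105, the precursor of p50. Its level was 579 and 571 CPM in tumour Treg, 618 and 586 in TB spleen Treg, 643 and 639 in normal spleen Treg, 497 and 429.6 in tumour Tconv, 413 and 406 in TB spleen Tconv and 404 and 397 in normal spleen Tconv. No change between tumour and TB spleen was called for Nfkb1 (-0.07 ± 0.07 (adjusted p = 0.447) in Treg, 0.18 ± 0.07 (adjusted p = 0.0586) in Tconv), and Treg lay above Tconv at all 3 sites. With library-size scaling the Treg change of Nfkb1 was -0.23 (adjusted p = 0.0086), and the value of Rela in Treg changed sign to -0.01. Per kilobase, Rel and Nfkb2 together took a larger part of the family in the tumour than in TB spleen, in both cell types. The share of Nfkb2 was 30.8% ± 0.74 in tumour Treg, 22.9% ± 1.3 in TB spleen Treg and 19.1% ± 0.47 in normal spleen Treg. That of Rel was 10.4% ± 0.009, 6.34% ± 0.069 and 4.75% ± 0.26. The share of Rela was 28.1% ± 2.1 in tumour Treg and 48.5% ± 0.0059 in normal spleen Tconv, groups that differ in both site and cell type. Shares depend on the length used, which joins all annotated exons (12061 bases for Nfkb1 and 3072 for Rela).

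The MyD88 adaptors and the IRAK kinases did not change in one direction. Myd88, the adaptor that the group is named for, was 84.4 and 79.2 CPM in tumour Treg, 70.5 and 71.6 in TB spleen Treg, 86.4 and 88.9 in normal spleen Treg, 87.6 and 84.3 in tumour Tconv, 102 and 110.2 in TB spleen Tconv and 109.5 and 113 in normal spleen Tconv. It rose slightly in tumour Treg (0.20 ± 0.06, adjusted p = 0.0146) and fell in tumour Tconv (-0.31 ± 0.06, adjusted p = 0.0017), with a difference of 0.51 ± 0.09 (adjusted p = 0.0017). Library-size scaling ended the Treg call of Myd88 (adjusted p = 0.56). Its exons share 11.3% of their bases with a gene on the other strand. Tirap, the bridging adaptor of TLR2 and TLR4, was 11.9 and 11.8 CPM in tumour Treg, 13.0 and 14.9 in TB spleen Treg, 9.83 and 9.97 in normal spleen Treg, 5.41 and 7.17 in tumour Tconv, 8.91 and 9.24 in TB spleen Tconv and 4.69 and 4.43 in normal spleen Tconv. Treg exceeded Tconv at every site, and Tirap fell in tumour Tconv by 0.52 ± 0.15 on the log2 scale, while in Treg the change was -0.23 ± 0.14 (adjusted p = 0.172). Tollip, an adaptor that restrains IRAK1, was 115 and 112 CPM in tumour Treg, 76.5 and 72.9 in TB spleen Treg, 70.5 and 69.3 in normal spleen Treg, 125 and 116 in tumour Tconv, 86.7 and 88.4 in TB spleen Tconv and 86.4 and 90.4 in normal spleen Tconv. It rose in both cell types, by 0.60 ± 0.06 (adjusted p = 5.6e-06) and 0.46 ± 0.06 (adjusted p = 7.6e-05) in Treg and Tconv.

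Irak4, the first kinase of the MyD88 complex, was 38.2 and 39.4 CPM in tumour Treg, 51.3 and 52.5 in TB spleen Treg, 61.0 and 59.7 in normal spleen Treg, 32.4 and 28.8 in tumour Tconv, 47.3 and 50.9 in TB spleen Tconv and 55.2 and 54.4 in normal spleen Tconv. Tumour libraries were the lowest in each cell type, with changes of -0.42 ± 0.07 (adjusted p = 3.8e-04) in Treg and -0.68 ± 0.08 (adjusted p = 1.6e-05) in Tconv. Irak1, the kinase that IRAK4 activates, was 138 and 137 CPM in tumour Treg, 135 and 133 in TB spleen Treg, 131 and 128 in normal spleen Treg, 143 and 137 in tumour Tconv, 141 and 135 in TB spleen Tconv and 116 and 122 in normal spleen Tconv. All 12 libraries lay between 116 and 143 CPM, and its tumour changes were 0.04 ± 0.06 (adjusted p = 0.538) in Treg and 0.02 ± 0.06 (adjusted p = 0.817) in Tconv. Irak2, which sustains late MyD88 signals, was 93.3 and 96.7 CPM in tumour Treg, 63.9 and 54.7 in TB spleen Treg, 52.6 and 55.4 in normal spleen Treg, 35.8 and 32.7 in tumour Tconv, 29.7 and 30.1 in TB spleen Tconv and 21.1 and 21.03 in normal spleen Tconv. All 6 Treg libraries lay above all 6 Tconv libraries, by 1.47 ± 0.08 (adjusted p = 2.1e-08) in the tumour, 0.99 ± 0.08 (adjusted p = 1.5e-06) in TB spleen and 1.36 ± 0.09 (adjusted p = 1.1e-07) in normal spleen. Irak2 rose in tumour Treg (0.68 ± 0.08, adjusted p = 1.7e-05), and the change in Tconv was 0.20 ± 0.09 (adjusted p = 0.0825) (difference 0.48 ± 0.12, adjusted p = 0.0108). The IRAK family share of Irak2 per kilobase was 35% ± 0.027 in tumour Treg, 24.5% ± 1.8 in TB spleen Treg and 22.4% ± 0.86 in normal spleen Treg, against 16.1% ± 0.57, 13.4% ± 0.15 and 10.7% ± 0.2 in Tconv. Irak3 encodes IRAK-M, an inhibitory member best known in macrophages. It was 9.33 and 13.8 CPM in tumour Treg, 10.8 and 8.42 in TB spleen Treg, 10.7 and 11.2 in normal spleen Treg, 15.6 and 18.6 in tumour Tconv, 16.4 and 18.0 in TB spleen Tconv and 13.4 and 13.0 in normal spleen Tconv, with no call between tumour and TB spleen in either cell type.

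TRAF adaptors split. Traf4, linked to negative control of receptor signals, was 158 and 142 CPM in tumour Treg, 48.0 and 43.6 in TB spleen Treg, 36.6 and 36.9 in normal spleen Treg, 110.3 and 88.7 in tumour Tconv, 44.5 and 42.2 in TB spleen Tconv and 46.0 and 46.7 in normal spleen Tconv. It rose by 1.71 ± 0.10 (adjusted p = 4.9e-08) in tumour Treg and 1.20 ± 0.10 (adjusted p = 1.5e-06) in tumour Tconv. Traf1, itself an NF-kB target, was 411 and 437 CPM in tumour Treg, 213 and 219 in TB spleen Treg, 211 and 202 in normal spleen Treg, 169 and 160.4 in tumour Tconv, 104 and 123 in TB spleen Tconv and 101 and 99.7 in normal spleen Tconv. All 6 Treg libraries were above the 6 Tconv libraries, and the tumour change was 0.97 ± 0.08 (adjusted p = 6.3e-07) in Treg and 0.54 ± 0.08 (adjusted p = 1.3e-04) in Tconv. Traf5, which restrains interleukin-6 receptor signals in CD4+ T cells, was 30.4 and 32.2 CPM in tumour Treg, 68.3 and 67.0 in TB spleen Treg, 72.8 and 79.4 in normal spleen Treg, 48.5 and 46.5 in tumour Tconv, 69.8 and 68.7 in TB spleen Tconv and 72.8 and 76.0 in normal spleen Tconv. It fell in both cell types, with changes of -1.11 ± 0.07 (adjusted p = 1.0e-07) in Treg and -0.54 ± 0.07 (adjusted p = 4.4e-05) in Tconv, and the larger fall in Treg (difference -0.57 ± 0.10, adjusted p = 0.0015). Traf6, the ligase downstream of the IRAK kinases, stayed between 119 and 165 CPM, with a change of 0.19 ± 0.07 (adjusted p = 0.0411) in tumour Tconv and 0.03 ± 0.07 (adjusted p = 0.713) in tumour Treg. Traf2, which recruits the cIAP ligases, was 89.4 and 74.0 CPM in tumour Treg, 80.4 and 79.3 in TB spleen Treg, 92.8 and 91.3 in normal spleen Treg, 55.2 and 51.4 in tumour Tconv, 57.1 and 61.1 in TB spleen Tconv and 62.7 and 65.5 in normal spleen Tconv. It was higher in Treg than in Tconv at all 3 sites and had no call between tumour and TB spleen. Traf3, which keeps NIK low, was 126.9 to 177 CPM, with -0.17 ± 0.06 (adjusted p = 0.033) in tumour Tconv.

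Among the kinases upstream of the inhibitors, those of NIK, IKK-beta and IKK-epsilon were lower in Treg than in Tconv at all 3 sites. Map3k14, encoding NIK, the kinase of the non-canonical route, was 73.4 and 79.3 CPM in tumour Treg, 92.1 and 75.9 in TB spleen Treg, 78.9 and 86.3 in normal spleen Treg, 255 and 237 in tumour Tconv, 154 and 141 in TB spleen Tconv and 118 and 124 in normal spleen Tconv. All Tconv libraries lay above all Treg libraries, and the gap was widest in the tumour, with Treg minus Tconv at -1.69 ± 0.09 (adjusted p = 1.8e-08) against -0.81 ± 0.09 (adjusted p = 1.8e-05) in TB spleen and -0.56 ± 0.09 (adjusted p = 4.1e-04) in normal spleen. NIK transcripts rose in tumour Tconv (0.74 ± 0.09, adjusted p = 3.6e-05), while in tumour Treg the change was -0.14 ± 0.09 (adjusted p = 0.221) (difference -0.88 ± 0.13, adjusted p = 5.9e-04). Ikbke, encoding the IKK-related kinase IKK-epsilon, was 106 and 111 CPM in tumour Treg, 172 and 171 in TB spleen Treg, 177 and 188 in normal spleen Treg, 224 and 211 in tumour Tconv, 229 and 218 in TB spleen Tconv and 218 and 224 in normal spleen Tconv. It fell in tumour Treg (-0.66 ± 0.06, adjusted p = 3.3e-06) and gave -0.04 ± 0.06 (adjusted p = 0.653) in tumour Tconv (difference -0.63 ± 0.09, adjusted p = 4.5e-04). The gene of the catalytic subunit IKK-beta, Ikbkb, was 141 and 139 CPM in tumour Treg, 142 and 144 in TB spleen Treg, 162 and 166 in normal spleen Treg, 198 and 188 in tumour Tconv, 191 and 188 in TB spleen Tconv and 186 and 186 in normal spleen Tconv. For Ikbkb, Treg minus Tconv was -0.47 ± 0.06 in the tumour, -0.41 ± 0.06 in TB spleen and -0.18 ± 0.06 in normal spleen. Chuk, encoding IKK-alpha, was 89.8 and 81.6 CPM in tumour Treg, 60.7 and 62.5 in TB spleen Treg, 57.7 and 59.8 in normal spleen Treg, 86.7 and 90.2 in tumour Tconv, 76.0 and 67.4 in TB spleen Tconv and 68.7 and 63.4 in normal spleen Tconv. It rose in tumour Treg (0.48 ± 0.08, adjusted p = 2.0e-04) and tumour Tconv (0.30 ± 0.08, adjusted p = 0.0061). Ikbkg, encoding the scaffold NEMO (73.8 to 89.7 CPM), differed among the 6 groups in no test, with an adjusted p of 0.314 over all groups at once.

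In the TAK1 complex, Tab1 fell in both cell types and Map3k7 in Treg. Tab1, an activating subunit, was 16.6 and 15.7 CPM in tumour Treg, 24.9 and 26.5 in TB spleen Treg, 25.4 and 27.2 in normal spleen Treg, 20.9 and 21.9 in tumour Tconv, 32.7 and 37.7 in TB spleen Tconv and 35.2 and 34.8 in normal spleen Tconv. Tumour libraries were the lowest in each cell type, with -0.67 ± 0.09 (adjusted p = 7.0e-05) in Treg and -0.72 ± 0.09 (adjusted p = 4.9e-05) in Tconv. Map3k7, encoding TAK1 itself, was 83.5 and 86.8 CPM in tumour Treg, 104 and 108 in TB spleen Treg, 101 and 102 in normal spleen Treg, 101 and 111 in tumour Tconv, 109 and 105 in TB spleen Tconv and 101 and 105 in normal spleen Tconv. It fell in tumour Treg (-0.31 ± 0.06, adjusted p = 0.0011) and gave -0.01 ± 0.06 (adjusted p = 0.932) in tumour Tconv. The ubiquitin-binding subunits Tab2 (300.5 to 469 CPM) and Tab3 (36.1 to 52.6 CPM) were not called between tumour and TB spleen in either cell type.

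Both cIAP ligases and Bcl10 rose in both cell types, and Malt1 in Tconv. Birc3, encoding cIAP2, was 256 and 293 CPM in tumour Treg, 145 and 148 in TB spleen Treg, 135 and 142 in normal spleen Treg, 274 and 278 in tumour Tconv, 128 and 126 in TB spleen Tconv and 96.3 and 103 in normal spleen Tconv. Tumour exceeded TB spleen by 0.91 ± 0.07 (adjusted p = 6.3e-07) in Treg and 1.12 ± 0.07 (adjusted p = 1.8e-07) in Tconv. Birc2, encoding cIAP1, was 238 and 231 CPM in tumour Treg, 159.9 and 161 in TB spleen Treg, 111 and 102 in normal spleen Treg, 153 and 153 in tumour Tconv, 104 and 96.0 in TB spleen Tconv and 87.9 and 83.2 in normal spleen Tconv. It rose by 0.55 ± 0.06 (adjusted p = 1.6e-05) and 0.62 ± 0.07 (adjusted p = 1.1e-05). Bcl10, which links CARMA1 to MALT1, was 132 and 117 CPM in tumour Treg, 81.7 and 76.0 in TB spleen Treg, 90.9 and 89.4 in normal spleen Treg, 140.0 and 142 in tumour Tconv, 78.7 and 71.4 in TB spleen Tconv and 84.5 and 84.3 in normal spleen Tconv. Its rise was 0.66 ± 0.07 (adjusted p = 1.2e-05) in Treg and 0.91 ± 0.08 (adjusted p = 1.4e-06) in Tconv. Malt1, the paracaspase that cleaves A20, was 442 and 516 CPM in tumour Treg, 475 and 443 in TB spleen Treg, 244 and 188 in normal spleen Treg, 396 and 362 in tumour Tconv, 283 and 248 in TB spleen Tconv and 227 and 207 in normal spleen Tconv. The tumour change of Malt1 was 0.51 ± 0.12 (adjusted p = 0.0036) in Tconv and 0.06 ± 0.12 (adjusted p = 0.675) in Treg, where the step lay instead between TB spleen and normal spleen (1.09 ± 0.12, adjusted p = 1.5e-04).

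**Figure D4:**
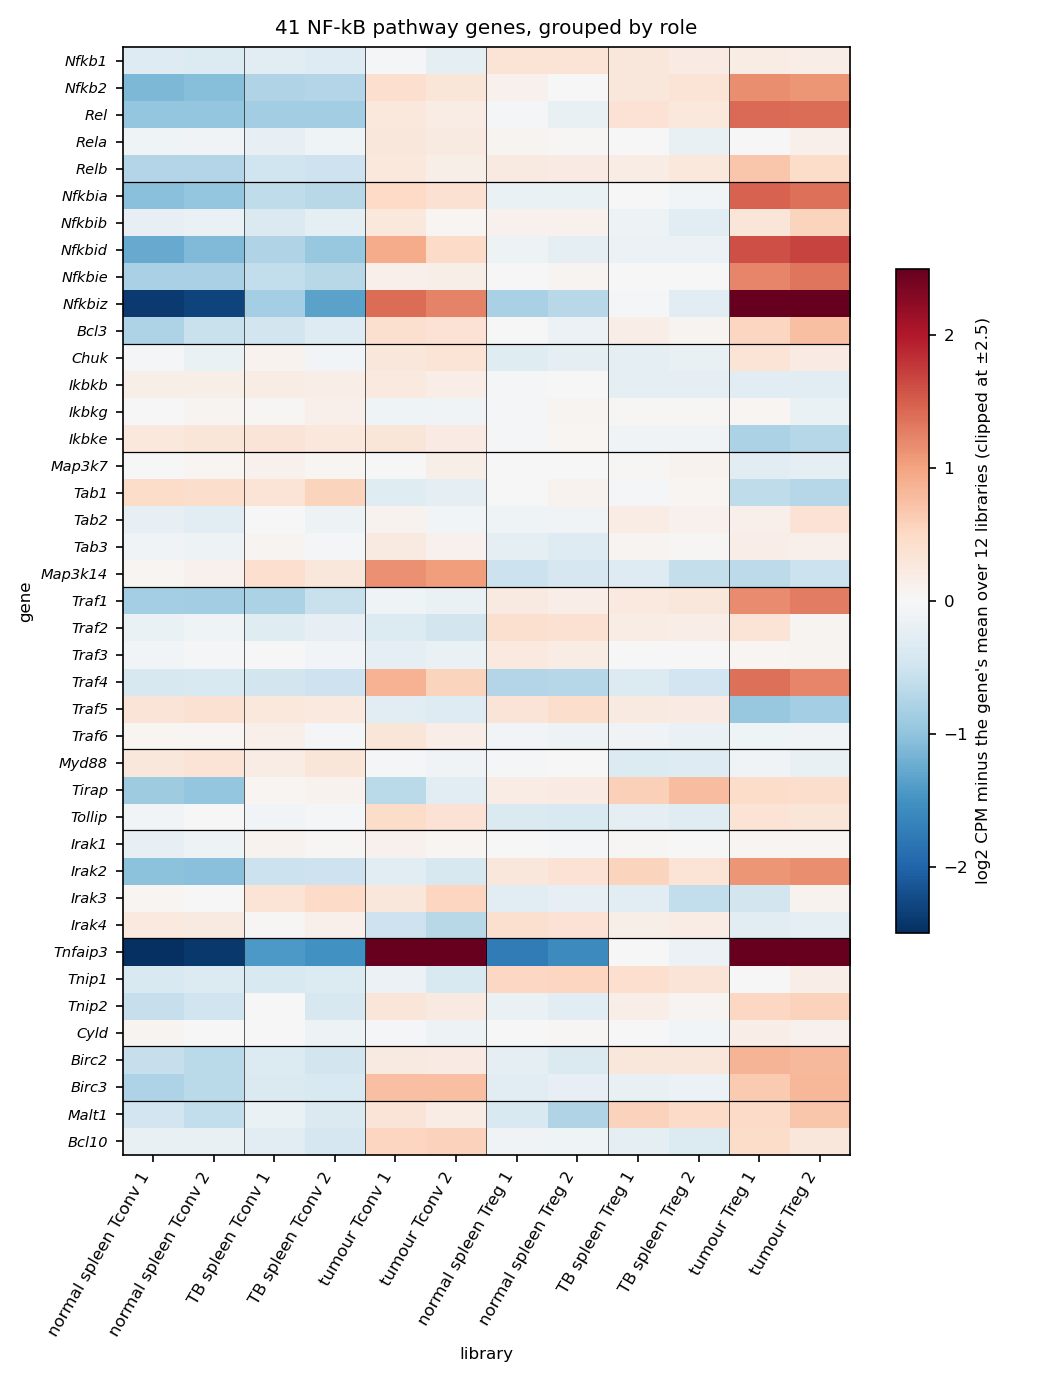
Log2 CPM of the 41 genes (rows, grouped by role) minus each gene's mean over 12 libraries (columns), on a colour scale clipped at ±2.5. Tumour Treg holds the highest group mean for 18 genes and normal spleen Tconv the lowest for 18. The same count over all genes tested was not made.

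Between the cell types, most genes of Rel subunits and of the IkB family were higher in Treg. Treg exceeded Tconv for 22 members and lay below for 9 in the tumour, against 27.2% and 26.7% of all genes (53.9% in either direction). In TB spleen the counts were 18 and 8 (background 21% and 19.4%, 40.3% in either direction), and in normal spleen 19 and 7 (21.8% and 18.7%, 40.6% in either direction). The median log2 difference of the members was 0.26 in the tumour, 0.09 in TB spleen and 0.15 in normal spleen, beside 0.00 over all genes at each site. In the tumour, 6 members were higher and 2 lower by at least 2-fold (background 10.5% and 7.46%, 17.9% in either direction), and 34 had libraries that did not overlap between the groups (background 71.6%). In TB spleen, 3 members were higher and 0 lower by at least 2-fold (background 10.6% and 4.16%, 14.8% in either direction), and 33 had libraries that did not overlap between the groups (background 70.6%). In normal spleen, 5 members were higher and 0 lower by at least 2-fold (background 11.1% and 3.55%, 14.7% in either direction), and 36 had libraries that did not overlap between the groups (background 74.3%). Genes of 4 of the 5 Rel subunits (Nfkb1, Nfkb2, Rel and Relb) were higher in Treg at all 3 sites. So were 5 of the 6 IkB family genes, with Nfkbib higher in the tumour and normal spleen and at 0.09 ± 0.10 (adjusted p = 0.529) in TB spleen. The share of all genes higher in Treg at all 3 sites was not computed. Leaving out 1 library ended 8 of the 31 calls in the tumour for some choice of library. Rela lost its call without tumour Treg 1, either normal spleen Treg library, tumour Tconv 1 or either normal spleen Tconv library (adjusted p = 0.0512 to 0.251). Nfkbib lost its call without tumour Treg 2, tumour Tconv 2 or normal spleen Tconv 2 (adjusted p = 0.0552 to 0.263). Bcl3 lost its call without tumour Treg 2 or either tumour Tconv library (adjusted p = 0.0605 to 0.18). Tab2 lost its call without tumour Treg 2, either normal spleen Treg library, tumour Tconv 2 or either normal spleen Tconv library (adjusted p = 0.0513 to 0.301). Irak3 lost its call without tumour Treg 1 or tumour Tconv 2 (adjusted p = 0.0738 to 0.154). Tnip1 lost its call without tumour Tconv 2 (adjusted p = 0.0597). Cyld lost its call without tumour Tconv 2 (adjusted p = 0.0865). Malt1 lost its call without tumour Treg 2 or tumour Tconv 2 (adjusted p = 0.123 to 0.203). In TB spleen it ended 4 of the 26 calls. Chuk lost its call without either TB spleen Treg library, either normal spleen Treg library or TB spleen Tconv 1 (adjusted p = 0.0563 to 0.288). Tirap lost its call without TB spleen Treg 2 (adjusted p = 0.054). Tollip lost its call without TB spleen Treg 2 or TB spleen Tconv 2 (adjusted p = 0.0539 to 0.0925). Birc3 lost its call without any 1 library other than both tumour Treg libraries and both tumour Tconv libraries (adjusted p = 0.0522 to 0.157). In normal spleen it ended 4 of the 26. Nfkbib lost its call without either normal spleen Treg library or either normal spleen Tconv library (adjusted p = 0.1 to 0.145). Ikbkb lost its call without either normal spleen Treg library or either normal spleen Tconv library (adjusted p = 0.0647 to 0.125). Ikbke lost its call without normal spleen Treg 1 (adjusted p = 0.0507). Traf4 lost its call without either normal spleen Treg library or either normal spleen Tconv library (adjusted p = 0.0668 to 0.0886). The 7 lower in normal spleen were 2 with a replicate block by description number. That block fits the normal spleen libraries exactly, so it cannot check this count.

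**Figure D5:**
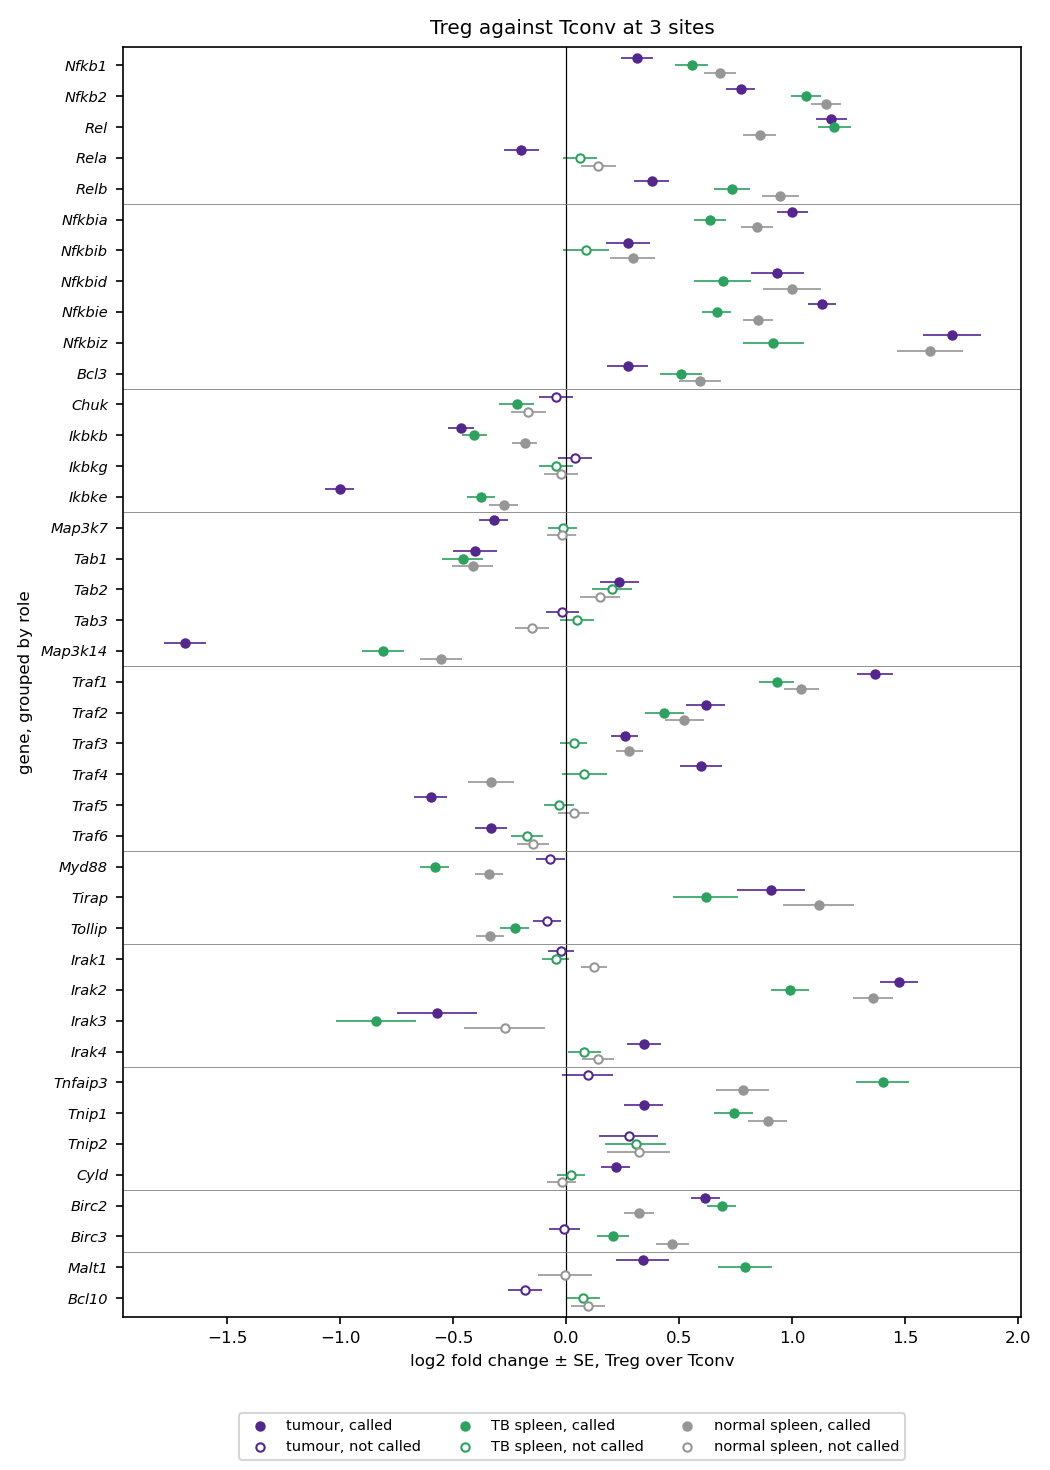
Log2 fold change ± SE (x axis) of Treg over Tconv for each of the 41 genes (y axis, grouped by role) in the tumour (purple), TB spleen (green) and normal spleen (grey), with filled points for called genes. Irak2, Traf1 and Nfkbiz lie to the right of 0 at all 3 sites, and Map3k14 and Ikbke to the left.

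A test of the difference between the cell types in their tumour over TB spleen change called 7 members with a positive and 8 with a negative difference, Treg minus Tconv (background 11.7% and 13.1%, 24.7% in either direction). Positive differences were those of Nfkbiz, Traf4, Myd88, Irak2, Nfkbie, Traf1 and Nfkbia. Negative ones were those of Tnfaip3, Map3k14, Ikbke, Traf5, Tnip1, Relb, Map3k7 and Nfkb2. Here 7 of the 15 calls did not hold without some library. Nfkb2 lost its call without any 1 library other than tumour Treg 1 and tumour Tconv 2 (adjusted p = 0.0522 to 0.121). Relb lost its call without any 1 library other than tumour Treg 1 and tumour Tconv 2 (adjusted p = 0.0513 to 0.121). Nfkbia lost its call without TB spleen Treg 2, tumour Tconv 2 or TB spleen Tconv 1 (adjusted p = 0.052 to 0.0717). Map3k7 lost its call without tumour Treg 1, either TB spleen Treg library, tumour Tconv 2 or TB spleen Tconv 2 (adjusted p = 0.0548 to 0.101). Traf1 lost its call without TB spleen Treg 1 or TB spleen Tconv 2 (adjusted p = 0.0501 to 0.0515). Traf4 lost its call without tumour Treg 1, TB spleen Treg 2 or TB spleen Tconv 1 (adjusted p = 0.0563 to 0.0684). Tnip1 lost its call without tumour Treg 1, TB spleen Treg 1, tumour Tconv 1 or either TB spleen Tconv library (adjusted p = 0.0705 to 0.117). The 8 negative differences were 4 without TB spleen Treg 1 or TB spleen Tconv 2, 5 without tumour Tconv 1 or TB spleen Tconv 1, and 4 with a replicate block by description number.

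Spleens of TB and normal mice were compared next, with the same TB spleen libraries as above. In Treg, 8 members were higher and 3 lower in TB spleen than in normal spleen, against 6.8% and 8.5% of all genes (15.3% in either direction). In Tconv 9 were higher and 0 lower, against 9.74% and 7.49% (17.2% in either direction). Between the spleens, in Treg, 2 members were higher and 0 lower by at least 2-fold (background 1.93% and 0.296%, 2.23% in either direction), and 32 had libraries that did not overlap between the groups (background 63.6%). Between the spleens, in Tconv, 1 member was higher and 0 lower by at least 2-fold (background 3.1% and 0.133%, 3.23% in either direction), and 32 had libraries that did not overlap between the groups (background 61.8%). At an unadjusted p under 0.05, 19 members differed in Treg and 18 in Tconv. The share of all genes at that threshold was not computed. DESeq2 called 10 members higher and 0 lower in Tconv, against 1206 higher and 1061 lower of 13509 genes. Tnfaip3, Nfkbiz, Nfkb2, Birc2 and Tirap were higher in TB spleen in both cell types. Nfkbiz gave 0.59 ± 0.13 (adjusted p = 0.0116) in Treg and 1.28 ± 0.15 (adjusted p = 1.8e-04) in Tconv. Malt1, Rel (0.42 ± 0.07, adjusted p = 0.0022) and Tab3 were called higher in Treg, where Myd88 (-0.30 ± 0.06, adjusted p = 0.0084), Traf3 and Ikbkb were lower, and Irak2 (0.50 ± 0.09, adjusted p = 0.003), Irak1, Nfkbia and Birc3 were higher in Tconv. Whether the spleen changes differed between the cell types was tested too. With edgeR no member was called at an adjusted p under 0.05, against 0.851% of all genes. At an unadjusted p under 0.05, 13 members differed, and the share of all genes at that threshold was not computed. DESeq2 called 3 members higher and 1 lower, against 63 higher and 148 lower of 13509 genes. Of the 11 calls in Treg, 7 were lost without some library. Nfkb2 lost its call without either TB spleen Treg library or normal spleen Treg 2 (adjusted p = 0.0643 to 0.187). Nfkbiz lost its call without TB spleen Treg 1 or either normal spleen Treg library (adjusted p = 0.0642 to 0.107). Ikbkb lost its call without either TB spleen Treg library, either normal spleen Treg library or either normal spleen Tconv library (adjusted p = 0.0631 to 0.214). Tab3 lost its call without either TB spleen Treg library or normal spleen Treg 2 (adjusted p = 0.0695 to 0.149). Traf3 lost its call without either TB spleen Treg library, either normal spleen Treg library or normal spleen Tconv 2 (adjusted p = 0.0512 to 0.164). Myd88 lost its call without either TB spleen Treg library or normal spleen Treg 2 (adjusted p = 0.0567 to 0.0881). Tirap lost its call without any 1 library other than both tumour Treg libraries and both tumour Tconv libraries (adjusted p = 0.0517 to 0.255). Of the 9 in Tconv, 5 were. Nfkb2 lost its call without normal spleen Tconv 1 (adjusted p = 0.055). Nfkbia lost its call without TB spleen Tconv 1 or normal spleen Tconv 1 (adjusted p = 0.0556 to 0.0828). Irak1 lost its call without TB spleen Tconv 1 or either normal spleen Tconv library (adjusted p = 0.0875 to 0.193). Birc2 lost its call without either TB spleen Treg library, TB spleen Tconv 1 or either normal spleen Tconv library (adjusted p = 0.057 to 0.265). Birc3 lost its call without normal spleen Tconv 1 (adjusted p = 0.0828). Counts of 8 higher and 3 lower in Treg fell to 4 and 0 without TB spleen Treg 1, 5 and 0 without TB spleen Treg 2, and 4 and 0 without normal spleen Treg 2, and the 3 lower became 1 without normal spleen Treg 1 or normal spleen Tconv 2 and 5 without either tumour Treg library or tumour Tconv 2. The 9 higher in Tconv fell to 4 without normal spleen Tconv 1. A replicate block by description number left 2 higher and 0 lower in Treg and 4 higher in Tconv. The descriptions number the normal spleen libraries 2 and 3 in Treg and 1 and 3 in Tconv, so that block fits them exactly. It takes its spread from the TB libraries alone and cannot decide whether these calls hold. With library-size scaling the split of the members in Treg was 10 higher to 1 lower (90.9% of calls higher, against 72.7%). Calls over all genes moved the same way, to 66.5% higher in Treg against 44.4% with TMM.

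Receptors that signal through MyD88 were mixed. Of 18 tested in a list of 20, 8 were higher and 4 lower in tumour Treg than in TB spleen Treg, and 8 higher and 6 lower in Tconv. The counts of this list and of those that follow stand beside 32.8% of all genes higher and 28.7% lower in Treg, and 26.4% and 22.8% in Tconv. Il1rl1, encoding the interleukin-33 receptor ST2, was 451 ± 14.5 CPM (SD, n = 2) in tumour Treg and 73.4 ± 19.1 in TB spleen Treg, a change of 2.62 ± 0.27 (adjusted p = 5.1e-06). In Tconv it was 79.3 ± 27.2 and 2.55 ± 1.63 CPM, a change of 5.01 ± 0.39 (adjusted p = 8.4e-07). Il1r1, the signalling interleukin-1 receptor, rose by 3.56 ± 0.36 (adjusted p = 4.4e-06) in Treg and 2.85 ± 0.32 (adjusted p = 1.9e-05) in Tconv. Tlr8 was 3.44 ± 0.755 CPM in tumour Treg and 2.88 ± 2.79 in tumour Tconv, with 0 counts in both TB spleen groups, where a count of 0 allows up to 0.123 to 0.156 CPM per library. Macrophages also express Tlr8, and their markers were higher in the tumour libraries.

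Of 9 genes of the antigen receptor route to IKK, 2 were higher and 4 lower in tumour Treg, and 1 higher and 2 lower in tumour Tconv. Prkcq, encoding protein kinase C theta, fell in tumour Treg by 1.07 ± 0.09 on the log2 scale (adjusted p = 1.1e-06). Of 19 TNF receptor adaptors and ubiquitin enzymes, 3 were higher and 2 lower in Treg, and 4 and 5 in Tconv. Map3k8, encoding the kinase TPL2, rose by 1.31 ± 0.11 (adjusted p = 1.4e-06) in Treg and 1.65 ± 0.12 (adjusted p = 6.2e-07) in Tconv. Of 18 further genes that restrain NF-kB, 6 were higher and 6 lower in Treg, and 4 and 4 in Tconv. Zc3h12a, encoding the RNase Regnase-1, rose from 46.8 ± 7.50 to 281 ± 6.99 CPM in Treg and from 29.6 ± 4.76 to 106 ± 12.9 CPM in Tconv.

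Textbook NF-kB target genes were mostly higher in the tumour. Of 35 tested in a list of 36, 29 rose and 5 fell in Treg (median log2 fold change 1.57), and 22 rose and 7 fell in Tconv (1.24), beside medians of 0.02 and 0.00 over all genes. Of all genes, 32.8% were called higher and 28.7% lower in Treg, and 26.4% and 22.8% in Tconv. Tumour minus TB spleen gave 5.62 ± 0.49 (adjusted p = 4.9e-06) in Treg for Cxcl2, a neutrophil-attracting chemokine. Ptgs2, encoding cyclooxygenase-2, was 164 ± 14.2 CPM in tumour Treg and 171 ± 107 in tumour Tconv, against 0.0204 ± 0.0289 and 0.0449 ± 0.0635 in TB spleen. Plau, encoding urokinase, was 15.3 ± 2.29 and 14.3 ± 12.7 CPM in the tumour. Fibroblasts and macrophages express these genes as well, and the list shares Ier3, Junb and Zfp36 with the stress list.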

How the data were processed

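RNA was measured in 12 libraries in 6 groups of 2. Per the labels' protocols, RNA isolation used RNeasy Plus Micro columns and library preparation a TruSeq Stranded mRNA kit. The submitters' processing notes name STAR, featureCounts and the mm10 assembly, without versions. The table deposited by the authors holds unscaled whole-number counts of reads for each gene. No source used here gives the strand setting, and the 11 members that share exonic bases with an opposite-strand gene and the 3 with a same-strand gene are therefore uncertain to that extent (GENCODE M21).

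Counts were fitted with edgeR 4.0.16 in R 4.3.3: filterByExpr by group, TMM scaling (factors 0.942 to 1.07) and 1 quasi-likelihood model of all libraries with 6 residual degrees of freedom (common biological coefficient of variation 0.0863). Tests were two-sided with Benjamini-Hochberg adjustment over 13509 genes and a threshold of 0.05. They covered 7 comparisons of 2 groups, 2 differences of differences and 1 test over all groups, which called 39 members (background 88.5%). The SE is the size of the log2 fold change divided by the square root of F. Replicates differed by 3.27 to 16.1 times counting noise (chi-square per gene). The procedure was also run on simulated counts in which few genes changed, evenly up and down, in tumour Treg alone. That run does not cover comparisons in which most genes differ. Levels are compared between genes only per kilobase of exon, with all annotated exons of a gene joined, which can exceed the length of its messenger RNA. Floors of 3 counts cover counting error only. Members and lists were chosen with earlier results of these data known. Genes described per library are, by rule, up to 3 called members of each role with the largest changes, plus Myd88, Irak1, Irak4, Rela, Nfkb1 and Nfkbia, and from each other list up to 3 called genes with the largest tumour change and a mean of at least 1 CPM. Promoter windows are from RefSeq (GRCm38.p6). Alternatives were DESeq2 1.42.0, limma-voom (limma 3.58.1), omission of each library in turn, library-size scaling, 2 other filters, blocks by replicate number, stricter thresholds and fits restricted to the compared groups. The plots were made in matplotlib 3.10.9.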

Additional observations from a re-analysis of the deposited data

Results flagged for a closer look

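The tumour over TB spleen change differed between Treg and Tconv for 15 of the 41 members by the test of the difference itself, against 24.7% of all genes (11.7% with a positive and 13.1% with a negative difference). Values are the log2 change in Treg minus that in Tconv. A positive difference was called for Nfkbiz (0.79, adjusted p = 0.008, from 3.19 in Treg and 2.40 in Tconv), Traf4 (0.52, adjusted p = 0.0169, from 1.71 in Treg and 1.20 in Tconv), Myd88 (0.51, adjusted p = 0.0017, from 0.20 in Treg and -0.31 in Tconv) and Irak2 (0.48, adjusted p = 0.0108, from 0.68 in Treg and 0.20 in Tconv). It was also called for Nfkbie (0.47, adjusted p = 0.0028, from 1.26 in Treg and 0.79 in Tconv), Traf1 (0.44, adjusted p = 0.0123, from 0.97 in Treg and 0.54 in Tconv) and Nfkbia (0.36, adjusted p = 0.0174, from 1.46 in Treg and 1.10 in Tconv). A negative difference was called for Tnfaip3 (-1.31, adjusted p = 1.7e-04, from 2.96 in Treg and 4.27 in Tconv), Map3k14 (-0.88, adjusted p = 5.9e-04, from -0.14 in Treg and 0.74 in Tconv), Ikbke (-0.63, adjusted p = 4.5e-04, from -0.66 in Treg and -0.04 in Tconv) and Traf5 (-0.57, adjusted p = 0.0015, from -1.11 in Treg and -0.54 in Tconv). Negative differences were also called for Tnip1 (-0.40, adjusted p = 0.0305, from -0.29 in Treg and 0.11 in Tconv), Relb (-0.35, adjusted p = 0.0372, from 0.35 in Treg and 0.71 in Tconv), Map3k7 (-0.31, adjusted p = 0.028, from -0.31 in Treg and -0.01 in Tconv) and Nfkb2 (-0.29, adjusted p = 0.0372, from 0.81 in Treg and 1.10 in Tconv). Tnfaip3 rose in both cell types to levels that were 4208 ± 61.6 CPM in tumour Treg and 3942 ± 825 CPM in tumour Tconv (mean ± SD, n = 2), from different levels in TB spleen (540.1 ± 39.7 and 205 ± 7.34 CPM). Myd88 changed in opposite directions in the 2 cell types, and so did no other member with a call in both. Its small rise in Treg (0.20) was not called with library-size scaling or without some single libraries. Several of the 15 calls on differences were also lost without some library, as given above.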

How the results depend on the processing

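Over 8 refits, none of the 173 calls on members reversed. All 173 were kept by limma-voom, 168 by DESeq2, 164 with library-size scaling, 166 without a filter on low counts, 169 with a filter at a mean CPM of 5, 155 when only the groups compared were fitted, and 172 with a replicate block by title number. Leaving out each library in turn kept 129 calls throughout. The counts of members then ran over 18 to 21 higher and 5 to 7 lower (tumour over TB spleen, Treg), 19 to 23 higher and 4 to 7 lower (Tconv), 16 to 23 higher and 8 to 10 lower (Treg over Tconv, tumour), 16 to 19 higher and 6 to 9 lower (TB spleen) and 18 to 20 higher and 4 to 7 lower (normal spleen). They ran over 4 to 10 higher and 0 to 5 lower (TB over normal spleen, Treg), 4 to 12 higher and 0 to 0 lower (Tconv), 5 to 8 higher and 4 to 9 lower (difference in tumour change) and 0 to 2 higher and 0 to 1 lower (difference in spleen change), and 38 to 40 over all groups. In the same order, requiring at least 2-fold left 7 higher and 1 lower, 8 and 0, 6 and 2, 3 and 0, 5 and 0, 2 and 0, 1 higher, and 0 and 1 members. An adjusted p under 0.01 left 4 higher and 1 lower in TB over normal spleen Treg, and 3 and 4 for the difference in tumour change.

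With library-size scaling, 11 members were lower in tumour Treg, and in TB over normal spleen 1 was lower in Treg and 15 higher in Tconv. For TB over normal spleen Tconv, 78.5% of the calls over all genes were then higher, against 56.5% with TMM. Either other filter left 1 lower in TB over normal spleen Treg. Fitting only the groups compared gave 7 lower there, 16 higher in Tconv, and 4 higher and 5 lower for the difference in tumour change. The difference in spleen change called 3 higher and 1 lower with DESeq2, 2 higher without a filter, 1 with the filter at 5, 3 with only the groups compared and 1 with the replicate block. Over all genes, the same refits called 63 higher and 148 lower, 47 and 137, 33 and 80, 77 and 243, and 33 and 108. A replicate block by description number kept 138 calls, with 2 lower in normal spleen Treg over Tconv, 2 higher and 0 lower in TB over normal spleen Treg, 4 higher in Tconv and 4 lower for the difference in tumour change. The block by description number fits the normal spleen libraries exactly, so it cannot check a comparison with them. The cause of the other moves was not tested. Over genes, deviations from the group means were correlated between libraries with the same number in their titles. Between Treg and Tconv the correlation was 0.188 in the tumour, 0.185 in TB spleen and 0.133 in normal spleen. It was -0.107 to 0.121 between the other groups. The descriptions number the normal spleen libraries otherwise, as 2 and 3 in Treg and 1 and 3 in Tconv. With 2 libraries a group and no label of a shared animal, the numbers were not taken as pairing. The block by title number ended 1 call, that on Rela between tumour Treg and tumour Tconv (adjusted p = 0.0515), and added 4. Groups of 2 limit every value here.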
